A study of Homo sapiens with 4 samples.

Results

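The nuclear genes for the subunits of the 5 oxidative phosphorylation complexes were compared between LNCaP cells treated with androgen and vehicle and LNCaP cells treated with androgen and the KDM5 inhibitor CPI-455. Members were the protein-coding genes whose symbols are NDUFA, NDUFB, NDUFC, NDUFS or NDUFV and a number, NDUFAB1, SDHA to SDHD, CYC1, or begin with UQCR, COX4 to COX8 or ATP5. The rule took 89 of the 60675 genes in the count files, of which 38 belonged to complex I, 4 to complex II, 10 to complex III, 17 to complex IV and 20 to complex V. Of these, 81 had enough counts to be tested, among 17600 tested genes of the series.

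LNCaP is an androgen-responsive prostate cancer line derived from a lymph node metastasis. RNA was sequenced after 72 h of treatment, with 2 libraries in each group, described as biological replicates. The group "LNCaP + R1881" received 1 nM R1881, a synthetic androgen, and vehicle (DMSO). The group "LNCaP + R1881 +CPI455" received the same 1 nM R1881 and 50 µM CPI-455. All cells were therefore androgen-treated and were grown in hormone-depleted medium, all were of 1 line, and no library without R1881 or with CPI-455 alone was compared here.

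Oxidative phosphorylation takes place in the inner mitochondrial membrane. Complexes I and II pass electrons from NADH and succinate to ubiquinone, complex III passes them on to cytochrome c, and complex IV passes them to oxygen. Complexes I, III and IV pump protons as they do so, and complex V, the ATP synthase, uses the returning protons to make ATP. Most subunits are encoded in the nucleus, translated in the cytosol and imported, while the mitochondrial genome encodes a few membrane subunits of complexes I, III, IV and V and none of complex II. Prostate epithelium is known for a citrate-secreting metabolism that prostate cancer cells turn back towards oxidation.

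The vehicle libraries held 19623553 and 20690819 fragments assigned to genes and the libraries of CPI-455 cells 9522920 and 5401588. Values below are counts scaled to library size (CPM) with TMM factors, and 3 counts corresponded to 0.137 to 0.142 CPM in the vehicle libraries and 0.337 to 0.595 CPM in the others. A gene was called when its false discovery rate (FDR, Benjamini-Hochberg over all tested genes) from edgeR's quasi-likelihood test was below 0.05 and its change was at least 2-fold. The groups also differed in the nuclear RNA MALAT1, which took 0.0884 to 0.114% of fragments in the vehicle libraries and 4.95 to 6.49% in the others, and the part of RNA composition in the results below was not tested. All 9 luminal prostate markers (such as KLK3 and KRT8) were above 3 counts in every library, with summed levels of 882 to 957 CPM in the vehicle libraries and 384 to 438 CPM in the others, although KLK2 went the other way (84.2 and 64.4 CPM against 108 and 111 CPM), whereas 0 of 3 basal, 1 of 4 stromal, 0 of 2 endothelial and 0 of 3 blood markers were.

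Promoters of several of these genes are known to bind NRF1, GABP (an ETS factor), YY1, SP1 and CREB, so the RefSeq promoters were searched for 1 word of each. The letters were GCGCATGCG for NRF1, CCGGAAG for ETS factors, AAGATGGCG for YY1, GGGCGG for SP1 and TGACGTCA for CREB, on either strand, from 250 bases before to 50 bases after each start. Matching words may overlap one another. Of the 81 tested members 66 had an entry in the RefSeq table, with 79 promoters. The 5 stretches shown are upstream stretches without an annotated exon, in GRCh38.p14, and were picked to show 4 genes called higher with CPI-455 beside SDHB, which was not called. They are NDUFB4 (chr3:120596086-120596308 on the forward strand), COX5B (chr2:97645812-97646039 on the forward strand), COX7C (chr5:86617691-86617903 on the forward strand), ATP5IF1 (chr1:28235874-28236108 on the forward strand) and SDHB (chr1:17054171-17054282 on the reverse strand). Each reads 5′ to 3′ on the strand of its gene, with matched words in capitals.
NDUFB4: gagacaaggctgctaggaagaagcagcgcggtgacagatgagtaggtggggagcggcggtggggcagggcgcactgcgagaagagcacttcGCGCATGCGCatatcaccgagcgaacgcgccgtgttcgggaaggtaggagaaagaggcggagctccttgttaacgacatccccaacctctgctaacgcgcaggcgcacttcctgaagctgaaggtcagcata
COX5B: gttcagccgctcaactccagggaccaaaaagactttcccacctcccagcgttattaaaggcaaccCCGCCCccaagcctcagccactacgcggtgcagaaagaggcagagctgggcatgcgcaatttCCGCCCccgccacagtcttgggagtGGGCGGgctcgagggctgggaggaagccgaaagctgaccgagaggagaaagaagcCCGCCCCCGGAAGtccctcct
COX7C: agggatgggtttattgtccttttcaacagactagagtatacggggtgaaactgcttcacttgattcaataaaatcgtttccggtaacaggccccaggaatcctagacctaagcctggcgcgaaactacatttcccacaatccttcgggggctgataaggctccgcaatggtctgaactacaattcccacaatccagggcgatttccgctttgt
ATP5IF1: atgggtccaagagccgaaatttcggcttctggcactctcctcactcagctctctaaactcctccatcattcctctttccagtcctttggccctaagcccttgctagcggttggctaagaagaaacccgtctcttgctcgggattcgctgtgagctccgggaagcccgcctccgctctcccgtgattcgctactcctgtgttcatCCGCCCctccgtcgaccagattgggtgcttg
SDHB: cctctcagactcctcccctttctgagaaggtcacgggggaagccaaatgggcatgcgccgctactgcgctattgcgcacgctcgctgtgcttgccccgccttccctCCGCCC

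NDUFB4 held the NRF1 word in both directions at 1 place, COX5B held the ETS word and the SP1 word, ATP5IF1 and SDHB each held the SP1 word in the part shown, and the stretch of COX7C held none of the 5. The NRF1 word was in 13.9% of the 79 member promoters and in 1.92% of all 35116 promoters in the table. The ETS word was in 27.8% against 10.3%, the YY1 word in 11.4% against 1.75%, the SP1 word in 63.3% against 45.0% and the CREB word in 6.33% against 1.85%. Members called higher with CPI-455 had 40 promoters and members not called had 38. In this order, the shares were 12.5% and 15.8% for NRF1 (5 and 6 promoters) and 27.5% and 28.9% for ETS (11 and 11). For YY1 they were 10.0% and 13.2% (4 and 5), for SP1 52.5% and 73.7% (21 and 28), and for CREB 7.5% and 5.26% (3 and 2). These words were thus more frequent in the members' promoters than in all promoters. Between called and uncalled members the numbers of promoters were close for every word but that of SP1. Members not called are not all unchanged, as 18 members passed the FDR in the higher direction at under 2-fold. The shares were not tested, and a match is a description of the letters only.

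Of the 81 tested members, 40 were called higher with CPI-455 and 1 was called lower. Over all tested genes, 21.0% were called higher and 21.3% lower, and over the 13813 tested protein-coding genes 15.6% were called higher and 24.4% lower. The members' shares were 49.4% and 1.23%. By the FDR alone, 58 members were higher and 3 lower, beside 29.8% and 32.8% of all tested genes, and 20 members did not pass it. The median log2 fold change (CPI-455 over vehicle) was 1.01 for the members, with quartiles of 0.30 and 1.61, -0.04 for all tested genes and -0.21 for protein-coding genes. In 68 members both CPI-455 libraries were above both vehicle libraries, in 4 both were below, and in 9 the groups overlapped. The share of all tested genes separated in this way is not given here, so nothing is concluded from these 3 counts.

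The share of members called higher varied between the complexes. It was 13 of 18 tested members (72.2%) in complex V, 18 of 37 (48.6%) in complex I and 6 of 12 (50%) in complex IV. In complex III it was 3 of 10 (30%) and in complex II 0 of 4, numbers too small to set apart from the 21.0% of all tested genes or 15.6% of protein-coding ones. The median log2 fold change was 1.26 for complex V, 1.19 for complex I, 1.05 for complex IV, 0.69 for complex III and -0.05 for complex II. The complexes differ in the number and length of their genes, and the differences between complexes were not tested.

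**Figure D1:**
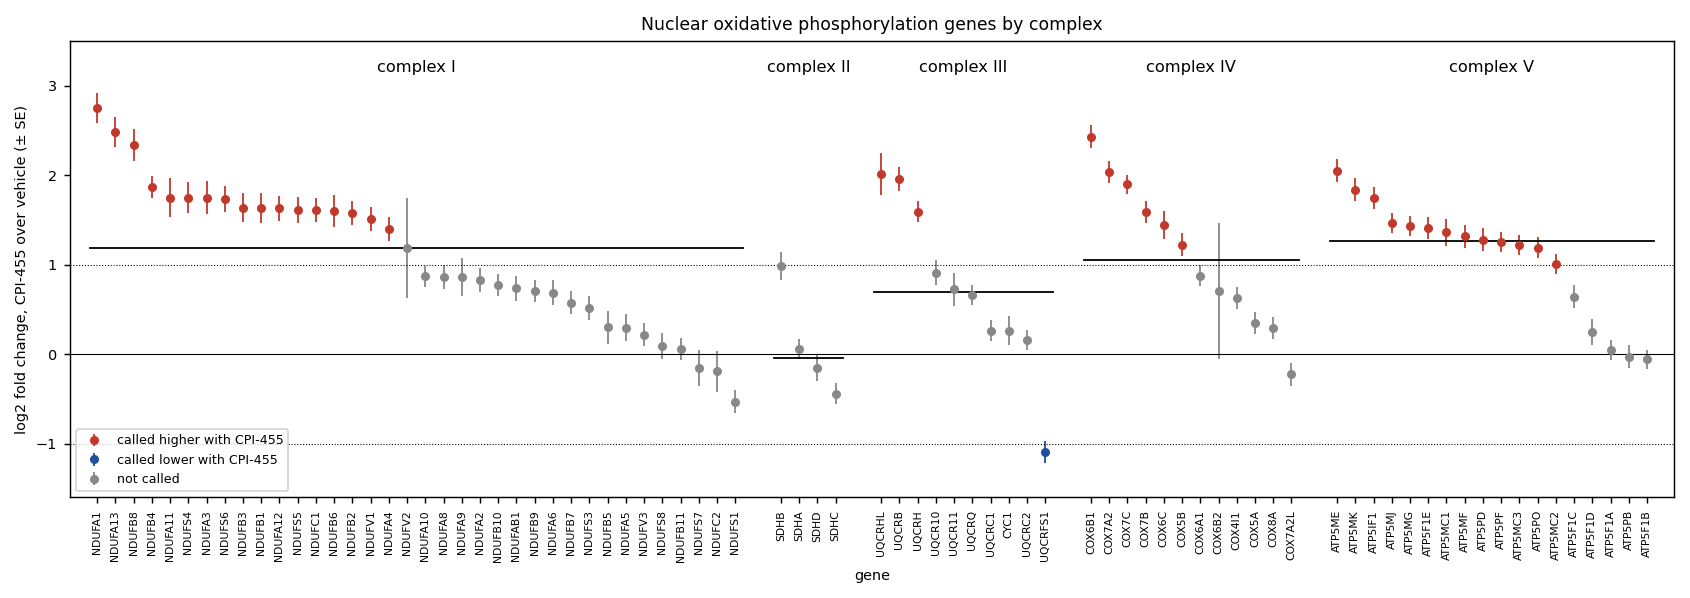
Log2 fold change (CPI-455 over vehicle, ± SE, 2 libraries in each group) of 80 of the 81 tested members, ordered within their complex, with a black line at the median of all tested members of the complex and dotted lines at 2-fold. Called genes are red (higher) or blue (lower); 39 are red, none of them in complex II, and the single blue gene is UQCRFS1 of complex III.

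Complex I takes electrons from NADH through the flavin and iron-sulfur centres of its core subunits, which are surrounded by many accessory subunits. Among 30 tested accessory members 16 were called higher and 0 lower, and the median log2 change was 1.48. Among the 7 nuclear core members 2 were called higher and 0 lower, with a median of 0.52. By symbol, 6 of 12 tested NDUFA genes, 6 of 11 NDUFB genes, 1 of 2 NDUFC genes, 4 of 8 NDUFS genes and 1 of 3 NDUFV genes were called higher.

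The highest fold change of complex I was that of NDUFA1 (ENSG00000125356, chromosome X), a small accessory membrane subunit. Its levels were 32.9 and 26.3 CPM with vehicle and 172 and 227 CPM with CPI-455, a log2 fold change of 2.75 ± 0.17 (SE, FDR = 2.037e-06). The groups did not overlap, but 44.5% of the annotated exon bases of NDUFA1 also belong to RNF113A, and fragments on the shared bases were not counted for either gene. NDUFA13, also known as the cell death regulator GRIM-19, was at 13.2 and 11.4 CPM with vehicle and 74.4 and 62.9 CPM with CPI-455, with a log2 fold change of 2.48. NDUFB8, an accessory subunit whose protein level is widely used as a marker of assembled complex I, was at 7.76 and 7.65 CPM against 39.4 and 38.5 CPM, with a log2 fold change of 2.34. For NDUFB8 48.5% of the exon bases were shared with other genes, and for NDUFA13 21.0%.

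NDUFV1, the core subunit that carries the flavin, was called higher. It was at 147 and 149 CPM against 469 and 373 CPM, with a log2 fold change of 1.51.

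Of the core members that were not called, NDUFS1, the largest core subunit, was at 98.6 and 108 CPM with vehicle and 73.9 and 68.6 CPM with CPI-455, so both CPI-455 libraries were lower, and its log2 fold change of -0.53 passed the FDR (0.00457) at under 2-fold. With the trend on GC content and exon length removed it was at -0.07 (FDR = 0.627), and without R1881_vehicle replicate 2 its FDR was 0.0806. NDUFS3 was at 50.4 and 53.4 CPM against 70.3 and 78.5 CPM, which also passed the FDR (0.00750) at under 2-fold. NDUFS7, which holds the last iron-sulfur centre before ubiquinone, was at 47.0 and 62.7 CPM against 57.6 and 40.1 CPM, and the groups overlapped. For NDUFS7 49.1% of the exon bases were shared with other genes. NDUFS8, another iron-sulfur subunit, was at 80.6 and 86.8 CPM against 99.3 and 77.5 CPM and overlapped as well. NDUFV2 had only 47 and 31 counts in the vehicle libraries and 22 and 31 in the others. Its log2 fold change of 1.19 carried an SE of 0.56 (FDR = 0.0912). Another gene shares 28.4% of the exon bases of NDUFV2 and 1 annotated pseudogene carries its name, so its counts may understate its level. NDUFA4 was counted in complex I by its symbol, although its protein is known as a subunit of complex IV, and it was called higher with a log2 fold change of 1.40.

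**Figure D2:**
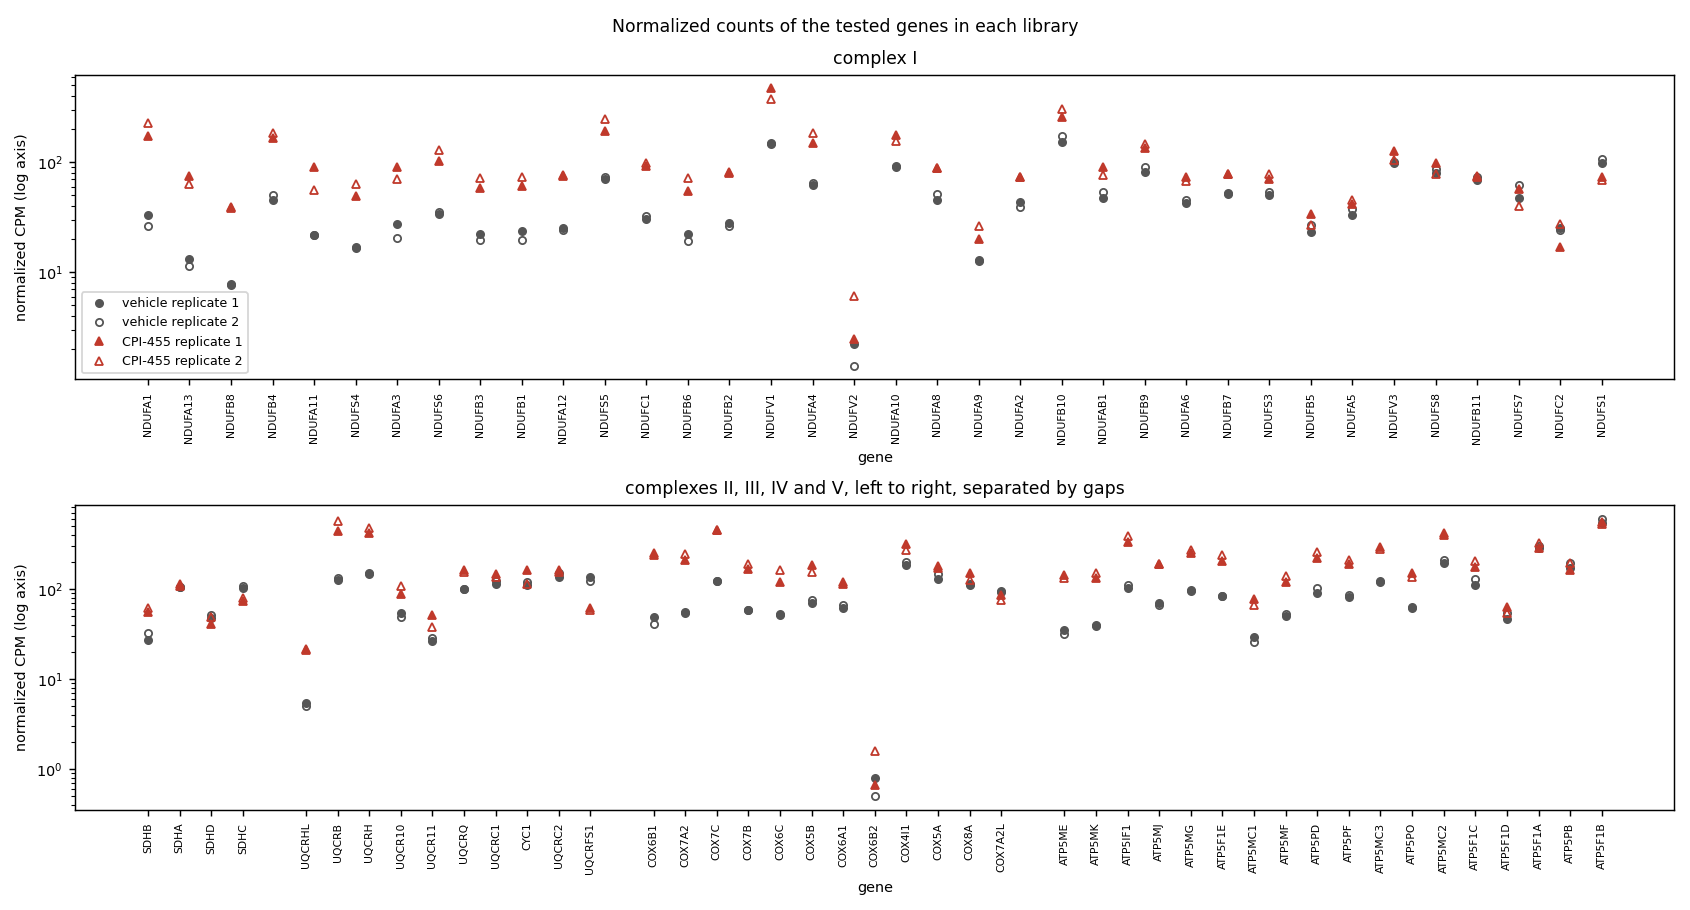
Normalized counts (CPM, log axis) of 80 of the 81 tested members in each library, for complex I (top) and complexes II to V (bottom), ordered by fold change within a complex. Grey circles are vehicle libraries and red triangles CPI-455 libraries (filled replicate 1, open replicate 2); at the left of complex I, NDUFA1 goes from between 26.3 and 32.9 CPM to between 172 and 227 CPM, and at its right end NDUFS1 is lower with CPI-455.

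Complex II, succinate dehydrogenase, is the only complex shared with the citric acid cycle and has 4 subunits, all nuclear. None was called. SDHB, the iron-sulfur subunit, was at 27.2 and 32.4 CPM with vehicle and 55.8 and 62.1 CPM with CPI-455, and its log2 fold change of 0.98 ± 0.16 (SE, FDR = 4.827e-04) was just short of 2-fold. It reached 1.04 without R1881_CPI455 replicate 1, 1.09 without R1881_vehicle replicate 2 and 1.12 in thinned libraries, and was called higher there. SDHA, the flavin subunit that oxidises succinate, was at 104 and 106 CPM against 107 and 112 CPM, with a log2 fold change of 0.06 (FDR = 0.677). With the trend on GC content and exon length removed, SDHA was at 0.42 (FDR = 0.00507). The membrane anchor SDHC was at 101 and 107 CPM against 74.2 and 79.7 CPM, lower in both CPI-455 libraries (log2 fold change -0.44, FDR = 0.0104), and the other anchor, SDHD, overlapped between the groups at 47.2 and 51.4 CPM against 40.7 and 48.6 CPM. SDHC did not pass the FDR with the trend on GC content and exon length removed (-0.06, FDR = 0.621), nor without R1881_vehicle replicate 1 (FDR = 0.0634) or replicate 2 (FDR = 0.141).

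In complex III the calls in the higher direction were all of small subunits. All 6 small subunits without a redox centre (UQCRB, UQCRH, UQCRHL, UQCRQ, UQCR10 and UQCR11) passed the FDR in the higher direction and 3 of them were called, with a median log2 fold change of 1.25. UQCRB was at 125 and 132 CPM with vehicle and 442 and 559 CPM with CPI-455 (log2 fold change 1.96, FDR = 3.27e-06). UQCRH was at 148 and 145 CPM against 414 and 471 CPM (log2 fold change 1.59). Annotated pseudogenes carry the names of UQCRB (3) and UQCRH (4). UQCRHL, an intronless copy of UQCRH with a nearly identical coding sequence, was at 5.49 and 4.99 CPM against 21.5 and 20.8 CPM (log2 fold change 2.01), and fragments that match both copies equally were not counted, so its value is less sure. With the trend on GC content and exon length removed, UQCRB, UQCRH and UQCRHL were still called higher, but UQCR10 (log2 fold change 0.27, FDR = 0.103) and UQCR11 (0.36, FDR = 0.0732) no longer passed the FDR.

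The 2 core proteins and cytochrome c1 were not called. UQCRC1 was at 112 and 122 CPM with vehicle and 145 and 136 CPM with CPI-455 (log2 fold change 0.26, FDR = 0.0736). UQCRC2 was at 135 and 150 CPM against 162 and 155 CPM (log2 fold change 0.16, FDR = 0.255), and with the trend removed it was at 0.62 (FDR = 8.364e-04), above UQCR10, UQCR11 and UQCRQ. CYC1, the cytochrome c1 that hands electrons to cytochrome c, was at 110 and 121 CPM against 161 and 114 CPM, and the groups overlapped.

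UQCRFS1 (ENSG00000169021), the Rieske iron-sulfur protein of complex III, was the only member called lower. It lies on the reverse strand of chromosome 19 between positions 29205321 and 29213541. Its levels were 136 and 121 CPM with vehicle and 61.1 and 58.9 CPM with CPI-455, a log2 fold change of -1.10 ± 0.13 (SE, FDR = 6.153e-05). Both CPI-455 libraries were about as low as each other and far from the vehicle libraries. UQCRFS1 shares 5.01% of its exon bases with UQCRFS1-DT, and 3 annotated pseudogenes carry its name. The change was close to the 2-fold limit, and in a test against a 2-fold change its FDR was 0.233. With the trend on GC content and exon length removed, its log2 fold change was -0.85 (FDR = 2.256e-04), no longer 2-fold, and with all libraries thinned to the depth of the shallowest it was -0.99.

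Complex IV, cytochrome c oxidase, has a core of mitochondrially encoded subunits that are surrounded by nuclear ones. Of the 10 ubiquitous nuclear subunits 6 were called higher and 0 lower, and 9 passed the FDR. COX6B1, which faces the intermembrane space at the interface of the dimer, was at 48.7 and 41.0 CPM with vehicle and 235 and 248 CPM with CPI-455, a log2 fold change of 2.43 ± 0.13 (SE, FDR = 9.659e-07). COX7A2 was at 55.4 and 54.4 CPM against 210 and 241 CPM (log2 fold change 2.03), and COX7C was at 121 and 121 CPM against 447 and 453 CPM (log2 fold change 1.90). In these 3 small subunits the groups were far apart, although 7 annotated pseudogenes carry the name of COX6B1, 2 that of COX7A2 and 4 that of COX7C.

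The remaining calls of complex IV were COX7B, COX6C and COX5B, with log2 fold changes of 1.59, 1.44 and 1.22. COX5B, whose upstream stretch is printed above with the ETS and SP1 words, was at 68.8 and 75.4 CPM with vehicle and 183 and 153 CPM with CPI-455. COX4I1, the ubiquitous form of the regulatory subunit that binds adenine nucleotides, was at 182 and 198 CPM against 317 and 270 CPM, a log2 fold change of 0.63 (FDR = 0.00156) at under 2-fold. COX5A was at 127 and 146 CPM against 171 and 177 CPM (log2 fold change 0.35, FDR = 0.0283). COX8A was at 111 and 114 CPM against 148 and 127 CPM (log2 fold change 0.29, FDR = 0.0614), and 34.5% of its exon bases were shared with another gene. The direction of COX8A turned when the trend on GC content and exon length was removed, with a log2 fold change of -1.28 (FDR = 6.877e-06).

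Several complex IV subunits have a second form known from muscle, lung or testis, and these forms had few or no counts in LNCaP cells. COX4I2 and COX6A2 had 0 counts in every library, while COX4I1 was as given above and COX6A1 was at 60.7 and 66.0 CPM with vehicle and 114 and 119 CPM with CPI-455 (log2 fold change 0.88). COX7A1 had 1 and 0 counts under vehicle and again 1 and 0 under CPI-455, COX7B2 had 2 and 3 against 7 and 0, and COX8C had 2 and 3 against 3 and 0. COX6B2, the testis form of COX6B1, was above 3 counts in every library and was tested. It was at 0.805 and 0.504 CPM against 0.675 and 1.59 CPM and the groups overlapped (FDR = 0.444). The moves of complex IV were therefore measured on the ubiquitous forms, and at these counts a change of the 5 untested forms was not detectable. COX7A2L, a supercomplex assembly factor that the symbol rule also takes, was the lowest of the tested complex IV members at 92.4 and 95.6 CPM against 84.8 and 75.3 CPM (log2 fold change -0.23, FDR = 0.137).

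Complex V had the highest share of called members, and most of them lay outside the catalytic head. All 5 small membrane subunits tested (ATP5ME, ATP5MF, ATP5MG, ATP5MJ and ATP5MK) were called higher at a median log2 change of 1.47, as were 3 of 4 peripheral stalk subunits, with a median of 1.22. Of the 5 subunits of the F1 head and central stalk only ATP5F1E was called higher, and the median was 0.25. ATP5ME was at 35.2 and 31.3 CPM with vehicle and 143 and 131 CPM with CPI-455, a log2 fold change of 2.05 ± 0.13 (SE, FDR = 2.292e-06). MYL5 shares 61.6% of the exon bases of ATP5ME. ATP5MK was at 39.9 and 38.9 CPM against 131 and 151 CPM (log2 fold change 1.83).

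ATP5IF1, the inhibitor that blocks reversal of the ATP synthase, was at 101 and 110 CPM with vehicle and 327 and 380 CPM with CPI-455, a log2 fold change of 1.74 ± 0.12 (SE, FDR = 3.541e-06). It shared no exon base with another gene and has no annotated pseudogene of its name, and the groups did not overlap. The catalytic subunit ATP5F1B was at 534 and 594 CPM against 555 and 527 CPM (log2 fold change -0.06, FDR = 0.653). ATP5F1A, its partner in the F1 head, was at 284 and 301 CPM against 287 and 319 CPM (log2 fold change 0.05, FDR = 0.728). With the trend on GC content and exon length removed, ATP5F1A was at 0.50 (FDR = 9.658e-04) and ATP5F1B at -0.07 (FDR = 0.527). ATP5F1C, the rotating shaft, was at 111 and 129 CPM against 174 and 201 CPM and passed the FDR (0.00208) with a log2 fold change of 0.64. Thus, as tested, the inhibitor was called higher while both subunits of the catalytic ring overlapped between the groups, but ATP5F1A passed the FDR with the trend removed. ATP5PB of the peripheral stalk also overlapped, at 170 and 194 CPM against 163 and 196 CPM.

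The c subunit, which forms the rotating ring, is made from 3 genes that encode the same mature protein with different import signals. ATP5MC1 was at 29.5 and 25.9 CPM with vehicle and 76.4 and 65.4 CPM with CPI-455 (log2 fold change 1.36), ATP5MC2 at 196 and 208 CPM against 398 and 415 CPM (1.01) and ATP5MC3 at 120 and 123 CPM against 291 and 275 CPM (1.22). All 3 were called higher, ATP5MC2 at the 2-fold limit. ATP5MC2 was called in 9 of 15 settings, the main one included. It was not called with library totals (0.82), without a filter (0.85) or with DESeq2 (0.965). In edgeR's glmTreat test against a 2-fold change its FDR was 0.507. Per kilobase of annotated exon their levels kept 1 order in every library, with ATP5MC2 highest (49.1 and 52.2 CPM per kb with vehicle, 99.6 and 104 with CPI-455), then ATP5MC3 (17.7 and 18.2 against 42.9 and 40.6) and ATP5MC1 (11.3 and 9.91 against 29.2 and 25.02). Neighbours in this order did not overlap within a group. The annotated exon length counts the exons of all transcripts of a gene, so a level per kilobase depends on how many transcripts are annotated.

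Of the 8 members that were not tested, NDUFA7 had 33 and 13 counts under vehicle against 2 and 1 under CPI-455, on libraries of unequal depth, which is 1.56 and 0.595 CPM against 0.225 and 0.198 CPM. The groups of NDUFA7 did not overlap, but the gene shares 33.5% of its exon bases with RPS28 and a second gene, and the CPI-455 values lie below the level of 3 counts. The readthrough gene ATP5MF-PTCD1 had 2 and 0 counts against 2 and 7, and the retrocopy ATP5MGL 0 and 0 against 2 and 0. The other 5 were the alternative complex IV forms COX4I2, COX6A2, COX7A1, COX7B2 and COX8C.

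Summed over its genes, complex IV was at 1001 ± 30.0 CPM with vehicle and 2207 ± 14.8 CPM with CPI-455 (mean ± SD, n = 2), 2.20 times as much. The ratio was 2.18 for complex I, 1.83 for complex III, 1.77 for complex V and 1.01 for complex II, for which the sums were 288 ± 12.8 and 290 ± 17.7 CPM and overlapped. All members together took 0.679 ± 0.0145% of all fragments in the vehicle libraries and 1.15 ± 0.0271% with CPI-455. The 13 protein genes of the mitochondrial genome, which complete complexes I, III, IV and V, were all called lower (median log2 fold change -4.26, range -4.97 to -2.78) and took 1.62 ± 0.306% of fragments in the vehicle libraries and 0.0870 ± 0.0111% with CPI-455. The nuclear sums of complexes I, III, IV and V were thus higher and the mitochondrial sums lower, although single nuclear members such as UQCRFS1 went the way of the mitochondrial genes. The count files do not tell how RNA was selected, and the part of RNA selection or of RNA composition in this was not tested. In bulk RNA, fewer cells of a type and less RNA per cell cannot be told apart.

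**Figure D3:**
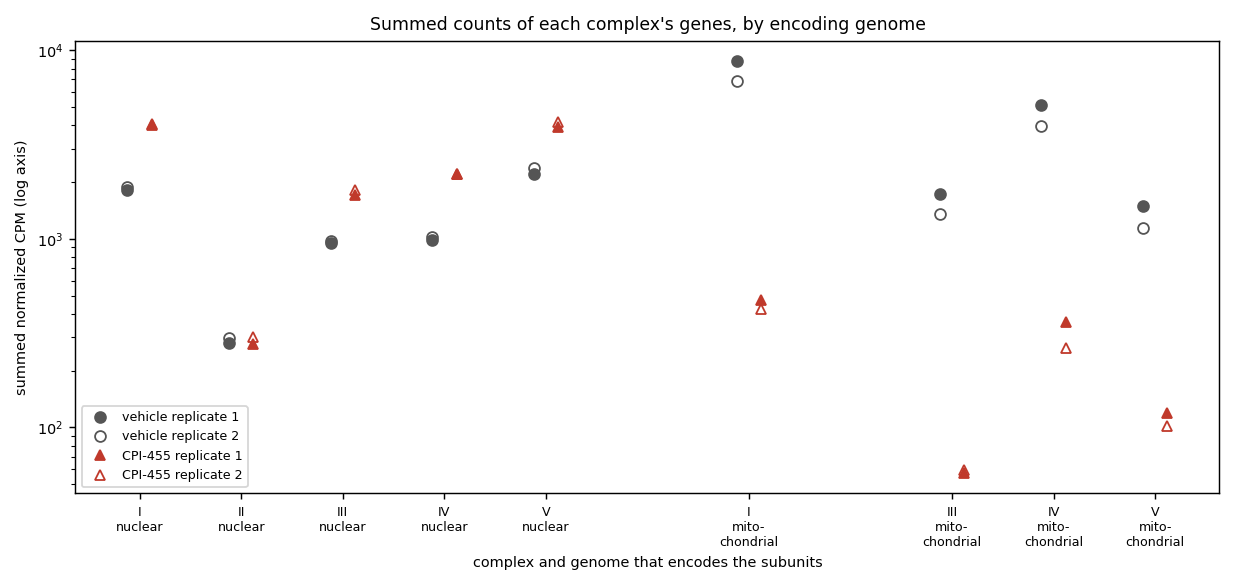
Summed normalized counts (CPM, log axis) of the genes of each complex in each library, for nuclear genes (left) and genes of the mitochondrial genome (right; complex II has none). Grey circles are vehicle and red triangles CPI-455 (filled replicate 1, open replicate 2); nuclear sums of complexes I, III, IV and V are higher with CPI-455 (1.77 to 2.20 times), that of complex II overlaps, and all mitochondrial sums are lower.

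Many of the members are short genes, and fold change followed transcript length. The median length of the canonical transcript was 763 bases for the tested members and 3401 bases for tested protein-coding genes, and 58.0% of members against 5.21% of protein-coding genes had a canonical transcript under 1000 bases. Of the 47 such members 31 were called higher and 0 lower (66.0%, median log2 fold change 1.44). Of the 719 protein-coding genes that short, members included, 42.0% were called higher and 4.87% lower, with a median of 0.88. Of the 34 members with a canonical transcript of 1000 bases or more 9 were called higher and 1 lower (26.5% and 2.94%, median 0.49), beside 14.2% and 25.5% of the 13094 protein-coding genes of that length, whose median was -0.27. In both length classes the members' share called higher was thus above that of protein-coding genes, by less than the comparison with all genes shows, and the difference was not tested.

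The complexes also differed in their share of short members. Complex II had 0 of 4 members under 1000 bases, complex V 11 of 18, complex IV 8 of 12, complex I 25 of 37 and complex III 3 of 10. Among the members under 1000 bases 10 of 11 were called higher in complex V, 14 of 25 in complex I, 5 of 8 in complex IV and 2 of 3 in complex III. Among those of 1000 bases or more the counts were 3 of 7 in complex V, 4 of 12 in complex I, 1 of 4 in complex IV, 1 of 7 in complex III and 0 of 4 in complex II. Across the 81 members the log2 fold change correlated with the log2 length of the canonical transcript (Pearson's r = -0.489, Spearman's rho = -0.557), and across the 13813 protein-coding genes less so (r = -0.257, rho = -0.300). It did not follow the GC content of the members' exons (r = -0.011). These are correlations across genes of the same libraries, which are not independent replicates. NDUFV1 and UQCRB are called members with a canonical transcript above 1000 bases, and COX8A (494 bases) and NDUFB11 (586 bases) are short members that were not called.

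**Figure D4:**
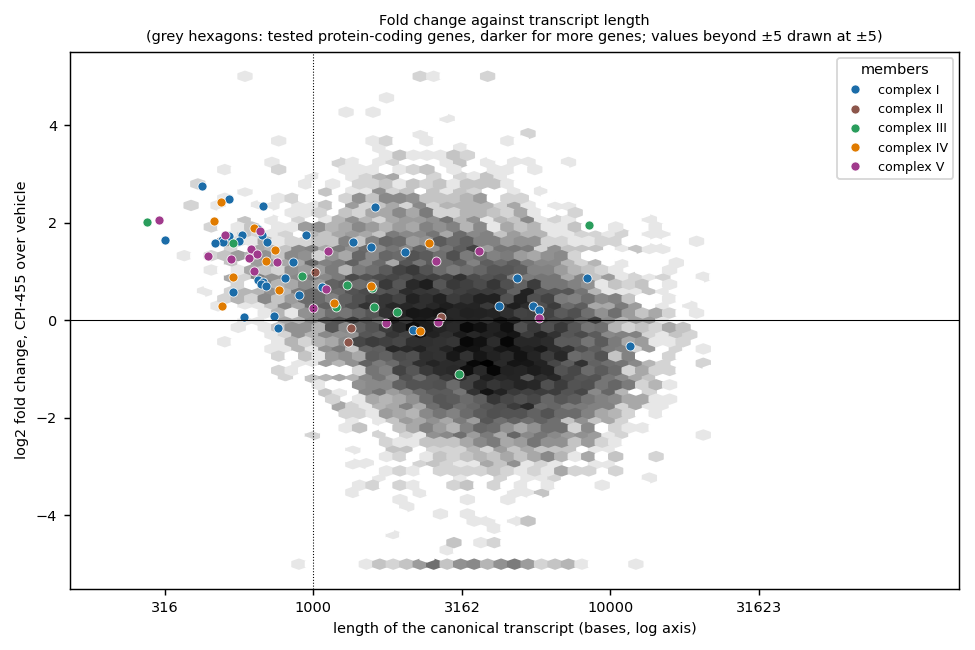
Log2 fold change (CPI-455 over vehicle) against the length of the canonical transcript (bases, log axis) for the 81 tested members, coloured by complex, over all tested protein-coding genes (grey hexagons, darker for more genes, values beyond the axis drawn at its end). The dotted line marks 1000 bases; 47 members lie left of it with a median of 1.44, and 34 right of it with a median of 0.49.

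When a smooth trend of each library's counts on GC content and exon length was removed, 41 members were called higher and 1 lower. Of the 40 called higher without the removal 38 remained, NDUFS5 (log2 fold change 0.43 in place of 1.61) and COX5B (0.75 in place of 1.22) dropped out, and SDHB (1.02), NDUFA9 (1.33) and NDUFA10 (1.28) came in. The gene called lower was then COX8A and not UQCRFS1. NDUFB7 turned from 0.58 to -0.97 (FDR = 2.045e-04) and NDUFB11 from 0.06 to -0.59 (FDR = 0.00310), both under 2-fold. NDUFA1 was at 1.71, COX6B1 at 1.47 and ATP5ME at 1.06, all lower than without the removal, and UQCRB at 2.48 was higher. This trend used the deposited exon length, which sums over all transcripts (median 2475 bases for the members), not the canonical length, so a dependence on the length of the transcript in use may remain.

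**Figure D5:**
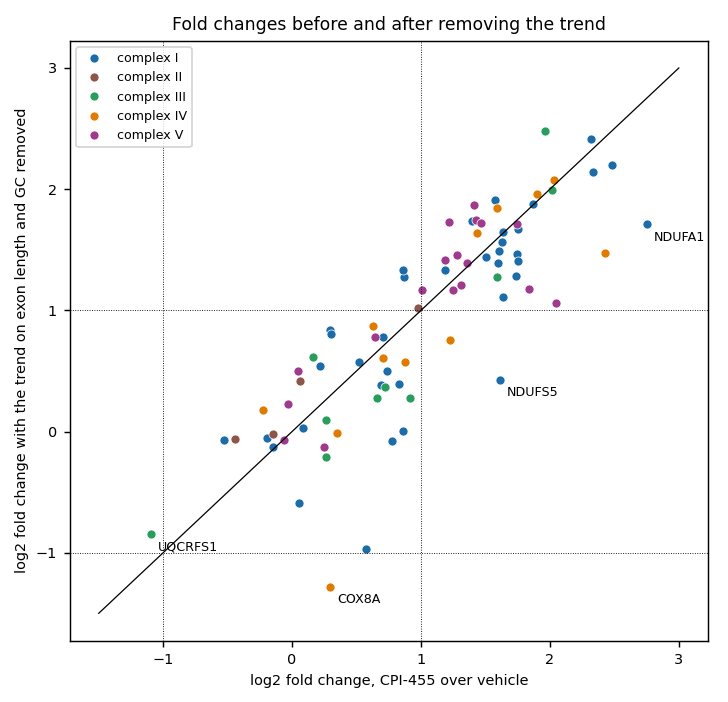
Log2 fold change (CPI-455 over vehicle) of each tested member as tested (horizontal) and with the smooth trend on GC content and exon length removed (vertical), coloured by complex, with the line of equality and dotted lines at 2-fold. Most members lie near the line; NDUFA1 (2.75 and 1.71), NDUFS5 (1.61 and 0.43), NDUFB7 (0.58 and -0.97) and COX8A (0.29 and -1.28) lie below it.

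How the members are annotated could also touch their counts, because fragments matching several genes or several places were not counted and strand was not used. Of the 81 tested members 42 shared exon bases with another gene on either strand and 50 had at least 1 annotated pseudogene of their name. Of the 39 members with no shared exon base 20 were called higher (51.3%), and of the 13 that also had no named pseudogene 6 were (46.2%), with 0 lower in both sets. These shares stood beside 49.4% for all tested members. UQCRHL, the intronless copy of UQCRH, was among the 6, so the 13 are not free of genes with a near copy. Of complex IV only COX7A2L was among the 13, so the calls of that complex all rest on genes with shared exon bases or named pseudogenes.

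Proteins that assemble the complexes or feed electrons into the chain were compared by the same test, from lists written with earlier results of these data known. Of 52 tested assembly factors 11 were called higher and 5 lower (21.2% and 9.62%), with a median log2 fold change of 0.25. The share called higher was near the 21.0% of all tested genes and above the 15.6% of protein-coding ones, and was not tested. The share called lower was below both (21.3% and 24.4%). By share called higher, complex I factors came first, with 5 of 16 called higher and 0 lower. By median log2 fold change those of complex II did (0.72 against 0.51), on 4 genes that ranged from -1.72 to 1.96. The complex I factors called higher were NDUFAF2 (28.9 and 31.7 CPM with vehicle, 91.2 and 93.8 CPM with CPI-455, log2 fold change 1.61), TMEM126B (1.55), NDUFAF7 (1.49), FOXRED1 (1.16) and ACAD9 (1.02). For complex II SDHAF4 was called higher (1.96) and SDHAF2, which attaches the flavin to SDHA, lower (-1.72). SDHAF2 had 166 and 180 counts under vehicle against 27 and 8 under CPI-455, and shares 30.5% of its exon bases with another gene. For complex III UQCC2 was called higher (1.90).

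Among 22 tested complex IV factors 3 were called higher and 3 lower (13.6% each). Beside them stood 21.0% and 21.3% of all tested genes and 15.6% and 24.4% of protein-coding ones. The copper carrier COX17 was at 17.2 and 17.5 CPM with vehicle and 45.0 and 58.7 CPM with CPI-455 (log2 fold change 1.57), and CMC1 (1.24) and PET100 (1.36) were also called higher. COA7 was at 102 and 96.1 CPM against 21.3 and 25.8 CPM (log2 fold change -2.09), TACO1, which activates translation of the mitochondrial COX1 message, was at -1.38, and SCO1, which delivers copper, at -1.05. Of 4 complex V factors FMC1 was called higher (1.14) and ATPAF1 lower (136 and 141 CPM against 47.0 and 43.6 CPM, log2 fold change -1.61). Assembly factors of complexes IV and V were thus called in both directions. For complex IV the share called higher was near that of protein-coding genes, and the share called lower was below it. The 4 of complex V (25% each way) were too few to set apart from either share. The nuclear subunits of these complexes were called in the higher direction alone as tested (50% and 72.2%). Transcript length, which fold change followed across genes, was not separated in this comparison. Of these subunits 8 of 12 and 11 of 18 had a canonical transcript under 1000 bases. Among the called factors of complexes IV and V, COX17 had 426 bases and PET100 663. The others had from 1014 (FMC1) to 9577 bases (SCO1). The difference between factors and subunits was not tested.

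Of 7 tested genes for other electron carriers and dehydrogenases 0 were called higher and 2 lower (28.6%), beside 21.3% of all tested genes. These were GPD2, the mitochondrial glycerol phosphate dehydrogenase (29.6 and 32.9 CPM with vehicle, 6.75 and 10.9 CPM with CPI-455, log2 fold change -1.87), and SQOR, which had 26 and 32 counts under vehicle against 0 and 2 under CPI-455. Cytochrome c (CYCS) was at -0.12 (FDR = 0.350). Among 10 regulators of mitochondrial biogenesis 1 was called higher and 2 lower (10% and 20%), the latter near the share over all genes. TFB1M was called higher (1.09), and NRF1 (35.2 and 35.3 CPM against 17.2 and 9.32 CPM, log2 fold change -1.36) and TFAM, which packages and transcribes mitochondrial DNA (120 and 126 CPM against 51.1 and 56.5 CPM, log2 fold change -1.20), were called lower. GABPA, the DNA-binding part of GABP, passed the FDR at just under 2-fold (-0.99, FDR = 1.007e-04), and PPARGC1A was at 0.01 (FDR = 0.989). Of the 11 member promoters with the NRF1 word, 5 belonged to members called higher and 6 to members not called, and a link between the factor's level and these genes was not tested.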

How the data were processed

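RNA-seq of 4 LNCaP libraries, 2 in each of 2 groups, was analysed. Groups and replicate numbers were taken from the sample labels. The authors trimmed reads with TrimGalore, aligned them to GRCh38 with STAR and, per the file headers, counted fragments on exons of Ensembl release 83 genes with featureCounts 1.5.0-p1, without using strand and leaving out fragments with several alignments or several genes. The deposited values are raw counts per gene, not normalized. How RNA was selected for the libraries is not given in the sources used here. The authors' own comparisons were not used.

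Counts were analysed with edgeR 4.0.16 in R 4.3.3: filterByExpr with a minimum count of 10, TMM (factors 1.08, 1.06, 0.936 and 0.936), glmQLFit and glmQLFTest on the 4 libraries without covariates, and Benjamini-Hochberg adjustment over 17600 tested genes. Genes with FDR below 0.05 and at least 2-fold change were called. CPM were scaled to fragments on tested genes. P-values rest on 2 libraries per group and measure the spread between these libraries only, and the limits at 3 counts cover counting error only. Replicates differed beyond sampling noise (chi-square per degree of freedom 5.77 and 8.63).

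The members and the lists were chosen with earlier results of these data known. Named were 20 members fixed by role, the 3 highest called members of complexes I, III, IV and V whose mean log2 CPM reached 3, the lowest of each, every member called lower, the isoform pairs of complex IV, the c subunit genes and the untested members. Other genes in the text were named after their values were seen. Some named genes are not reported here. Symbols, gene types and canonical transcripts came from GENCODE release 44 (56558 of 60675 genes matched, all 89 members at the same place), and promoters from RefSeq on GRCh38.p14. The trend on GC content and exon length was fitted with mgcv 1.9.3. Alternatives were RLE size factors, library totals, no filter, DESeq2 1.42.0, edgeR's likelihood-ratio test, glmTreat, a replicate block, removal of the trend with and without the block, thinning to the shallowest library, other member rules and leaving out each library. The procedure was tested on simulated data with 200 changed genes.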

Additional observations from a re-analysis of the deposited data

How the results depend on the processing

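The number of members called higher was 37 to 44 under every alternative that kept all members, and 39 to 44 when 1 library was left out, where the lone library of a group was assumed to vary like the other group. The 1 member called lower became 0 with glmTreat and with thinned libraries, and 1 to 2 with 1 library left out (without R1881_CPI455 replicate 2, NDUFA7 and UQCRFS1). The median log2 fold change of all genes was shifted by -0.19 with library totals, -0.37 without a filter and 0.22 with DESeq2, and by -0.15 without R1881_CPI455 replicate 1. The members' median, 1.01, was 0.82 with library totals, 1.15 with DESeq2, 1.22 with thinned libraries and 1.10 for ubiquitous structural subunits only. Complex I (1.19) had medians of 1.00 with library totals, 0.88 without a filter, 1.01 with DESeq2, 1.28 with the trend removed, 1.499 thinned and 1.03 with longer symbols taken. Complex II (-0.05) had -0.24 with library totals, -0.20 without a filter, 0.20 with the trend removed and 0.15 thinned. Complex III (0.69) had 0.32 with the trend removed. Complex IV (1.05) had 0.86 with library totals, 1.18 with DESeq2, 0.81 with the trend removed, 1.32 thinned and 1.33 for structural subunits. Complex V (1.26) had 1.08 with library totals, 1.14 without a filter and 1.37 thinned.

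Without 1 library the medians were 0.90 to 1.10 for all members, 0.86 to 1.34 for complex I, -0.17 to 0.018 for complex II, 0.53 to 0.70 for complex III, 0.98 to 1.16 for complex IV and 1.19 to 1.26 for complex V. In an alternative chosen after seeing the data, the 13 members with no shared exon base and no named pseudogene, 6 were called higher and 0 lower, and the medians were 0.87 for all, 0.26 for complex III, -0.23 for complex IV (COX7A2L alone) and 1.47 for complex V. Over all genes, 3698 were called higher and 3756 lower, against 3128 and 4563 with library totals and 2455 and 2350 with glmTreat. COX8A turned to -1.28 with the trend removed.

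The replicate numbers are shared by the groups, but no source says that they pair cultures, and the deviations of same-numbered libraries correlated at 0.05 over genes. With the replicate block 40 members were called higher and 1 lower, the same counts as without it. With the replicate block and the trend removed 41 were higher and 1 lower, the medians were 0.20 for complex II, 0.32 for complex III and 0.81 for complex IV, and COX8A was at -1.27. The causes of these moves were not tested. At 5401588 fragments the shallower CPI-455 library limits what can be seen of the low alternative forms.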
